A study of Saccharomyces cerevisiae with 4 samples.

Results

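The transcripts described here encode the Hsp104 disaggregase and the abundant Hsp90 and Hsp70 chaperones of budding yeast, Saccharomyces cerevisiae. They were chosen by gene name, as 10 genes: HSP104 (YLL026W), HSC82 (YMR186W), HSP82 (YPL240C), SSA1 (YAL005C), SSA2 (YLL024C), SSB1 (YDL229W), SSB2 (YNL209W), SSC1 (YJR045C), SSE1 (YPL106C) and KAR2 (YJL034W). All positions assigned to 1 of these genes were taken from the deposited table of 5-formylcytidine (f5C) sites, which gave 23 of its 1892 sites, in 6 of the 10 genes. HSP104 had 8 sites, HSC82 had 5, HSP82 and SSB1 had 4 each, and SSA2 and SSB2 had 1 each. More than 1 site was found in 4 of these 6 genes, against 33.9% of all genes with a site. The median chaperone site was covered by more reads than the median site of the table, and this comparison was not matched for coverage. SSA1, SSC1, SSE1 and KAR2 had none.

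The 2 treated libraries were made from fragmented poly(A)+ RNA kept in 0.9 M pyridine borane for 24 h at 37 °C, and the 2 input libraries from the same kind of RNA without the reagent. Both groups came from yeast of 1 kind, picked as a single colony and grown overnight at 28 °C in rich medium with glucose. The labels give no genotype or strain name, and no heat shock or other stress is stated, so the values are those of an overnight culture. The libraries are numbered 1 and 2 in each group, and nothing says whether a number stands for a separate culture. The SDs and p-values below therefore measure the spread between libraries or the counting of reads, which may be technical.

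Pyridine borane reduces f5C, an oxidised form of 5-methylcytidine, to a base that reverse transcriptase reads as U. A site is seen as mutated reads, and its level is the percentage of covering reads that are mutated. The chaperones of this set work in sequence on unfolded proteins. Hsp70 proteins bind exposed hydrophobic stretches and release them in a cycle of ATP hydrolysis, Hsp90 acts later on a narrower group of clients such as kinases, and Hsp104 threads proteins out of aggregates together with Hsp70. In yeast several of these genes exist as near-identical pairs: HSC82 and HSP82 for Hsp90, SSA1 and SSA2 for cytosolic Hsp70, and SSB1 and SSB2 for the Hsp70 that sits on the ribosome. Short reads from such pairs can be shared between both genes, and the labels do not say how the authors assigned them.

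All 23 sites had a higher mutated fraction in treated than in input RNA, in both replicates. In treated RNA their levels ranged from 7.57% to 18.6% in replicate 1 and from 7.57% to 16.9% in replicate 2. In input RNA the summed reads covering them were mutated at 0.0550% in replicate 1 and 0.0420% in replicate 2. The largest adjusted p of the 23 was 5.78e-39, at SSB1 site 3 (two-sided Fisher exact test on reads summed over replicates, Benjamini-Hochberg over 1892 sites). The same test called 100% of the table, because the authors had selected every site on these libraries, so the call describes the table and is no independent evidence.

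**Figure D1:**
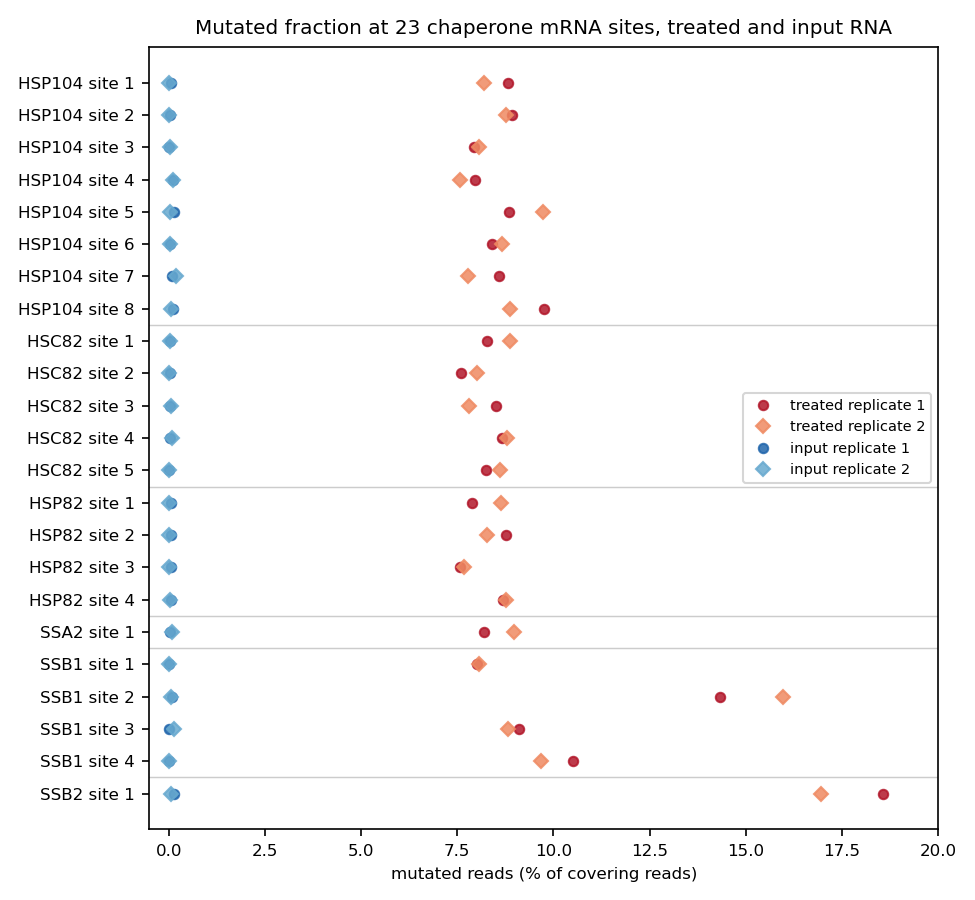
Mutated reads as a percentage of covering reads at each of the 23 chaperone sites, numbered 5′ to 3′ within a gene, in treated replicates 1 and 2 and input replicates 1 and 2. The treated points lie between 7.57% and 18.6%, and only SSB1 site 2 and SSB2 site 1 exceed 11% of covering reads, while all input points lie at or below 0.196%.

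The median level of the 23 sites was 8.53%, against 9.002% over all 1892 sites, with quartiles of 8.17% and 8.90% in the chaperone sites and 8.35% and 10.1% in the whole table. Coverage moved with this difference. The chaperone sites had a median of 5019 and 3586 covering reads in treated replicates 1 and 2 and of 4660 and 3805 in input, against 469, 327.5, 417.5 and 338 over all sites. Among the 337 sites that reached 1000 reads in all 4 libraries, the median was 8.52% in the 21 chaperone sites and 8.49% over all of them. Levels of at least 10% were found at 3 of the 23 sites (13.0%), all in SSB1 and SSB2, and at 27.5% of all sites. With 1000 reads in all 4 libraries they were found at 2 of the 21 chaperone sites (9.52%) and at 10.4% of the 337. The table holds no treated value under 7.5%, so levels below that minimum were not seen by construction. In 7 of the 23 sites (30.4%) at least 1 treated replicate lay below 8%, against 31.8% of all sites. Among sites with 1000 reads in all 4 libraries these shares were 33.3% of the 21 and 41.2% of the 337.

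**Figure D2:**
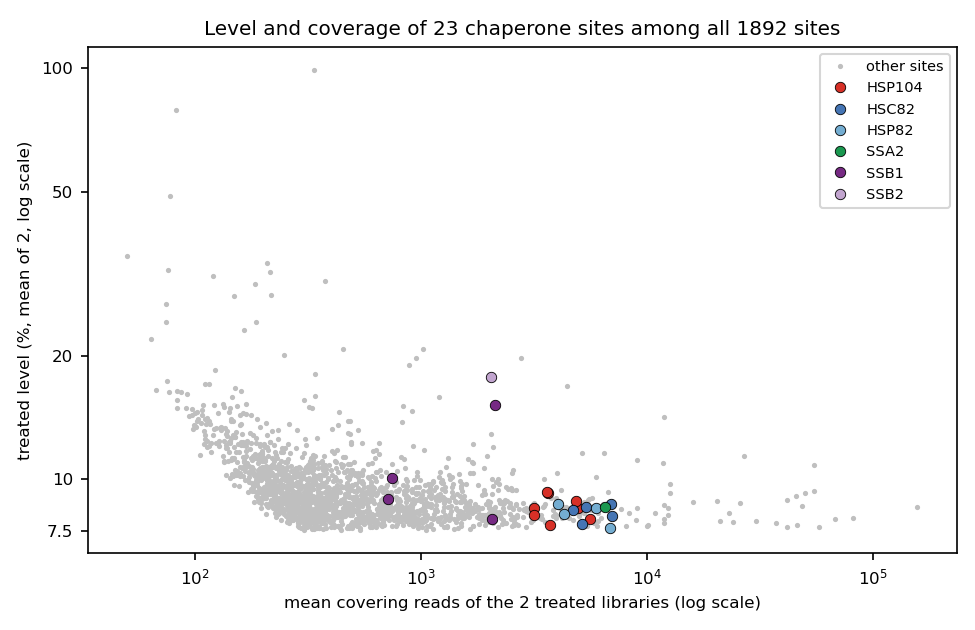
Treated level (mean of 2 replicates, log axis) against the mean number of covering reads in the 2 treated libraries (log axis) for all 1892 sites, with the 23 chaperone sites in colour by gene. HSP104, HSC82, HSP82 and SSA2 lie in the deeply covered part of the cloud, with levels from 7.62% to 9.31%, and the 17.8% of SSB2 and the 15.2% of SSB1 site 2 lie above it.

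The treated replicates differed little at these sites. The median absolute difference between them was 0.483 percentage points, against 0.870 over all sites and 0.466 over the 337 deeply covered ones, and the largest was 1.64 points, at SSB1 site 2. By two-sided Fisher exact test between the treated replicates 0 of the 23 sites differed, either after adjustment over 1892 sites (0% of the table) or at an unadjusted p of 0.05 (2.75% of the table). Replicate 2 was the higher at 13 of the 23 sites, against 58.2% of all sites. The table holds no value under 7.5% in either treated replicate, so sites low in 1 replicate are absent. The selection of sites thus fixes part of the agreement between replicates.

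HSP104 encodes the hexameric Hsp100 ATPase that pulls proteins out of aggregates and is needed for survival of severe heat and for the maintenance of several yeast prions. Its 8 sites lay on the plus strand of chromosome XII, within 1903 nt. The mean level over them was 8.55% ± 0.143 (SD, n = 2) in treated RNA and 0.0643% ± 0.00976 in input RNA, and each site had at least 2600 covering reads in both treated libraries.

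The first 3 sites of HSP104 formed a group within 25 nt. Site 1 (position 89154) had mutated reads at 8.83% and 8.20% in treated replicates 1 and 2, against 0.0625% and 0% in input replicates 1 and 2. Site 2 (position 89156) had 8.92% and 8.77% in treated RNA, against 0.0429% and 0% in input RNA. Site 3 (position 89179) had 7.93% and 8.06% in treated RNA, against 0% and 0.0230% in input RNA. Site 3 thus lay below sites 1 and 2 in each treated library. A count of 0 allowed an input share of up to 0.0767% at site 1 and 0.0788% at site 2 in replicate 2, and of up to 0.0562% at site 3 in replicate 1. Site 3 was also the most deeply covered HSP104 site, with 6657 and 4553 reads in treated and 5337 and 4339 in input RNA.

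Sites 4 and 5 of HSP104 stood alone, 342 and 833 nt from the site before. At site 4 (position 89521) the treated values were 7.96% and 7.57% and the input values 0.109% and 0.103%, and this was the lowest of the 8 sites by mean level. At site 5 (position 90354) they were 8.84% and 9.73% in treated and 0.130% and 0.0311% in input RNA. The values of site 5 exceeded those of site 4 in both treated replicates, without overlap, as in 18 of the 28 HSP104 pairs and in 47.6% of all pairs within genes.

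The last 3 sites of HSP104 lay 583, 3 and 117 nt from the site before each. Site 6 (position 90937) had 8.41% and 8.65% in treated RNA, against 0.0307% and 0.0391% in input RNA. Site 7 (position 90940) had 8.60% and 7.77% in treated RNA, against 0.0930% and 0.196% in input RNA. Its value in input replicate 2, from 5 mutated of 2548 reads, was the highest input value among the 23 sites. Site 8 (position 91057) had 9.75% and 8.87% in treated RNA, against 0.102% and 0.0670% in input RNA, and the highest mean level of the 8. Sites 6 and 7 had opposite orders in the replicates: site 6 was lower in replicate 1 and higher in replicate 2.

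**Figure D3:**
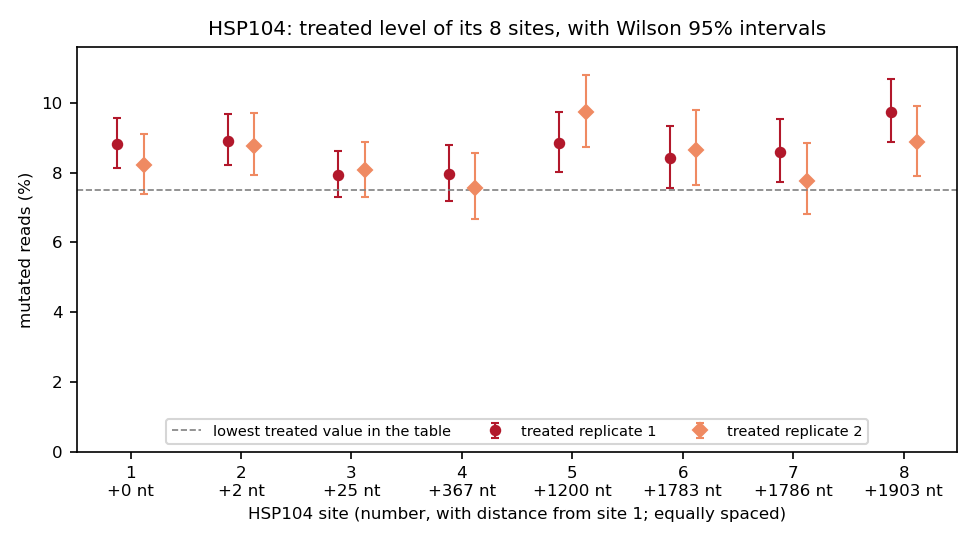
Mutated reads (%) at the 8 HSP104 sites in treated replicates 1 and 2, with Wilson 95% intervals that cover counting error only, and site numbers with the distance from site 1 in nucleotides on an equally spaced axis. The values run from 7.57% at site 4 to 9.75% at site 8, all above the dashed line at the lowest treated value of the table, 7.5%.

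The 8 HSP104 sites were compared with each other in all 28 pairs, by two-sided Fisher exact test on treated reads summed over replicates, with Benjamini-Hochberg adjustment over the 968 pairs of sites that share a gene in the whole table. Site 5 and site 8 were each higher than site 3 and site 4, and these 4 pairs were the only ones of the 28 that passed. The 4 calls are 14.3% of the HSP104 pairs, against 7.44% of all 968 pairs and 24.1% of the 166 pairs in which both sites had at least 1000 reads in every library. At an unadjusted p of 0.05 the Fisher exact test called 8 of the 28 HSP104 pairs, against 15.0% of all pairs. The adjusted HSP104 share thus lay between the shares of all pairs and of deeply covered pairs. Pairs share sites and are not independent of each other.

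The widest gap was between site 4 and site 8, with 7.77% ± 0.276 at site 4 and 9.31% ± 0.625 at site 8 (SD, n = 2) and a difference of -1.54 ± 0.349 points (adjusted Fisher exact p = 0.0122). Between sites 3 and 8 it was -1.31 ± 0.716 points (adjusted Fisher exact p = 0.0182). Site 4 minus site 5 gave -1.52 ± 0.904 points (adjusted Fisher exact p = 0.0311) and site 3 minus site 5 gave -1.29 ± 0.537 points (adjusted Fisher exact p = 0.0453). In all 4 the treated replicates did not overlap, as in 18 of the 28 HSP104 pairs and in 47.6% of the 968 pairs. These calls rest on both replicates together: with replicate 1 left out 0 of the 28 pairs passed, and with replicate 2 left out 1 did, that of sites 3 and 8 (adjusted Fisher exact p = 0.0258). Over all 968 pairs the 72 calls became 45 without replicate 1 and 49 without replicate 2.

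**Figure D4:**
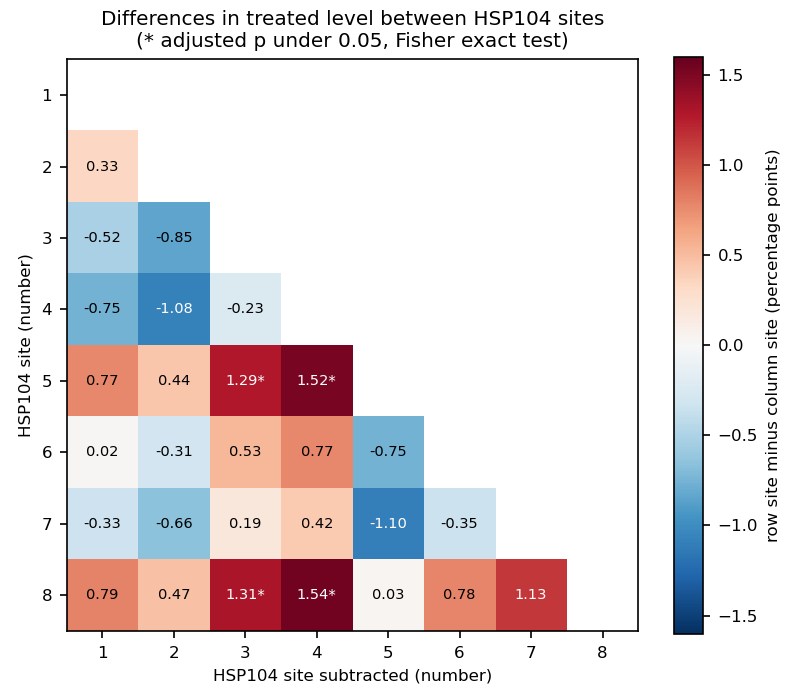
Difference in mean treated level between HSP104 sites, row site minus column site, in percentage points, with an asterisk where the Fisher exact test passed an adjusted p of 0.05. The 4 marked cells are those of sites 5 and 8 against sites 3 and 4, from 1.29 to 1.54 points.

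The other 24 HSP104 pairs did not pass, with adjusted Fisher exact p-values from 0.142. For sites 1 and 2, which lie 2 nt apart, the difference was -0.326 ± 0.336 points (SD, n = 2), and with reads summed the 95% interval of the difference ran from -1.07 to 0.511 points. For sites 6 and 7, which lie 3 nt apart, it was 0.348 ± 0.754 points, with an interval from -0.713 to 1.22. Sites this near can be covered by the same reads, and the test treats the reads of each site as separate. Over the 8 sites the order in the treated replicates correlated at a Spearman's rho of 0.762, across sites of 1 transcript that share the same libraries. Pearson's r over these sites was 0.565. In the other genes Spearman's rho was 0.2 over 5 sites of HSC82, 0.4 over 4 of HSP82 and 1 over 4 of SSB1. It was 0.490 over the 18 chaperone sites outside SSB1 and SSB2. The SD between the 8 site levels was 0.568 points, and the median SD between replicates at a site was 0.358 points.

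ACC1, which encodes acetyl-CoA carboxylase, was the other gene with 8 sites, over 4367 nt. Its mean level was 9.33% ± 0.0331 (SD, n = 2), and its sites ranged from 8.30% to 10.5%, against 7.77% to 9.31% in HSP104. The ACC1 sites were shallower, with a median of 408.5 and 287 treated reads, against 4280.5 and 3112.5 in HSP104. At that depth 0 of the 28 ACC1 pairs passed.

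The Hsp90 pair had 9 sites, 5 in HSC82, the constitutively expressed gene, and 4 in HSP82, its heat-inducible counterpart. In HSC82, on the plus strand of chromosome XIII, the mean level over sites was 8.34% ± 0.113 in treated RNA and 0.0393% ± 0.00647 in input RNA. In HSP82, on the minus strand of chromosome XVI, it was 8.28% ± 0.0841 in treated RNA and 0.0391% ± 0.0396 in input RNA (SD, n = 2). The site levels spanned 0.930 points in HSC82 and 1.11 points in HSP82.

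Along HSC82, the first 2 sites lay 70 nt apart. Site 1 (position 633231) had 8.28% and 8.86% mutated reads in treated replicates 1 and 2, against 0.0338% and 0.0419% in input. Site 2 (position 633301) had 7.59% and 8.02% in treated RNA, against 0.0374% and 0% in input RNA. Site 2 was the lowest HSC82 site by mean level. Its replicates did not overlap those of site 1 (adjusted Fisher exact p = 0.330), as in 5 of the 10 HSC82 pairs and in 47.6% of all pairs within genes. Sites 3 and 4 lay 6 nt apart and were the 2 most deeply covered positions of the set, with 8246 and 8121 reads in treated replicate 1. Site 3 (position 633867) had 8.50% and 7.81% in treated RNA, against 0.0418% and 0.0682% in input RNA. Site 4 (position 633873) had 8.67% and 8.80% in treated RNA, against 0.0422% and 0.0873% in input RNA. Site 5 (position 634127) had 8.25% and 8.60% in treated RNA, against 0.0186% and 0.0220% in input RNA. Of the 10 HSC82 pairs 0 passed after adjustment, against 7.44% of all pairs within genes and 24.1% of the deeply covered ones, and 2 had an unadjusted Fisher exact p under 0.05, against 15.0% of all pairs. The pair with the lowest p was site 2 and site 4, with a difference of -0.930 ± 0.206 points (adjusted Fisher exact p = 0.0860).

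HSP82 had no close pair. Its sites lay 283, 239 and 217 nt apart. Site 1 (position 97578) had 7.87% and 8.64% in treated RNA, against 0.0671% and 0% in input RNA. Site 2 (position 97295) had 8.76% and 8.27% in treated RNA, against 0.0654% and 0% in input RNA. These 2 sites overlapped in their replicates. Site 3 (position 97056) had 7.57% and 7.68% in treated RNA, against 0.0731% and 0.0183% in input RNA, and was the lowest of all 23 sites by mean level. Site 4 (position 96839) had 8.70% and 8.78% in treated RNA, against 0.0626% and 0.0259% in input RNA. Of the 6 HSP82 pairs, that of sites 3 and 4 passed (difference -1.11 ± 0.0222 points, adjusted Fisher exact p = 0.0480). This call was lost with either replicate left out (adjusted Fisher exact p = 0.592 without replicate 1 and 0.300 without replicate 2).

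The sites of the paralogs were compared across genes in the same way, with adjustment over the 968 pairs within genes and 37 pairs of sites across 10 gene pairs. These 10 were HSC82 with HSP82, SSB1 with SSB2, and 8 pairs recognised by the suffixes A and B of their symbols, so paralogs with other kinds of names are not among them. The chaperones make up 24 of the 37 site pairs. Between HSC82 and HSP82 1 of 20 pairs passed, against 21.6% of the 37 and 3 of the 13 pairs of the suffixed genes (23.1%). The replicates did not overlap in 9 of the 20, against 54.1% of the 37 and 53.8% of the 13. The pair that passed was HSC82 site 4 with 8.73% ± 0.0933 and HSP82 site 3 with 7.62% ± 0.0763, a difference of 1.11 ± 0.0170 points (adjusted Fisher exact p = 0.0123). The adjusted Fisher exact p was 0.341 without replicate 1 and 0.147 without replicate 2. Coverage overlapped between both genes, from 5539 to 8246 reads in HSC82 and from 4656 to 8113 in HSP82 in treated replicate 1. The distances between neighbouring sites had no value in common, 70, 566, 6 and 254 nt in HSC82 against 283, 239 and 217 nt in HSP82. Which positions of the genes correspond was not analysed here, since no sequence was used.

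SSA1 and SSA2 encode cytosolic Hsp70 proteins that serve protein folding and transport into organelles. Of this near-identical pair only SSA2 had a site, and SSA1 had none. The SSA2 site lay on the minus strand of chromosome XII at position 95602. It had 8.19% and 8.97% mutated reads in treated replicates 1 and 2, against 0.0323% and 0.0750% in input. With 7691 and 5384 treated reads, its Wilson 95% interval with replicates summed ran from 8.05% to 9.003%. Whether reads shared with SSA1 are counted at this position was not tested.

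SSB1 and SSB2 held the only sites of the set above 11%. They encode the Hsp70 that binds nascent chains at the ribosome, together with the complex of Zuo1 and Ssz1. At SSB1 site 2 (chromosome IV, position 44128, plus strand) the level was 14.3% and 16.0% in treated replicates 1 and 2, against 0.0950% and 0.0608% in input. At the single SSB2 site (chromosome XIV, position 252122, plus strand) the values were 18.6% and 16.9% in treated RNA, against 0.137% and 0.0608% in input RNA. By mean level the SSB2 site ranked 2 and SSB1 site 2 ranked 4 among the 337 sites that reached 1000 reads in all 4 libraries, and 26 and 47 among all 1892. The highest of the 337 was 19.7% in GAD1, which encodes glutamate decarboxylase. The next site of the chaperone set in the ranking of the 337 was HSP104 site 8, at rank 64.

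The other 3 SSB1 sites lay far below site 2. Site 1 (position 44119), 9 nt upstream of site 2, had 8.0% and 8.06% in treated RNA and 0% in both input libraries, where the upper limit of the input share was 0.0828% with replicates summed. Site 3 (position 44993) had 9.11% and 8.81% in treated RNA, against 0% and 0.140% in input RNA. Site 4 (position 44995) had 10.5% and 9.67% in treated RNA, against 0% in both input libraries and an upper limit of 0.201%. Sites 1 and 2 had nearly the same coverage, 2350 and 2427 reads in treated replicate 1, so positions 9 nt apart in the same stretch of RNA had levels of 8.03% ± 0.0450 and 15.2% ± 1.16 (SD, n = 2).

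Of the 6 SSB1 pairs 3 passed, all with site 2, against 7.44% of all 968 pairs within genes. Sites 3 and 4 had under 1000 reads in every library, so most SSB1 pairs are not among the deeply covered ones. Site 1 minus site 2 gave -7.13 ± 1.11 points (adjusted Fisher exact p = 7.58e-22). Site 2 minus site 3 gave 6.19 ± 1.37 points (adjusted Fisher exact p = 7.58e-08), and site 2 minus site 4 gave 5.06 ± 1.75 points (adjusted Fisher exact p = 4.15e-05). The first 2 calls held with either replicate left out, and the last was lost without replicate 2 (adjusted Fisher exact p = 0.0777). Sites 3 and 4, 2 nt apart, differed by -1.13 ± 0.384 points (adjusted Fisher exact p = 0.805), with an interval of the pooled difference from -3.32 to 0.965 points.

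All 4 pairs between SSB1 and SSB2 passed, against 8 of all 37 paralog pairs (21.6%), which include these 4. Among the suffixed genes 3 of 13 pairs passed (23.1%). The 4 pairs share the single SSB2 site and are not independent, and this site was higher than every SSB1 site. The nearest was SSB1 site 2, with 15.2% ± 1.16 against 17.8% ± 1.15 in SSB2 and a difference of -2.60 ± 2.31 points (adjusted Fisher exact p = 0.00792). The difference was -4.23 points in replicate 1 and -0.966 points in replicate 2, and the call was lost without replicate 1 (adjusted Fisher exact p = 1.00). The other 3 differences ran from -9.72 to -7.66 points and held with either replicate left out. The SSB2 site had 0.979 and 0.936 times the coverage of SSB1 site 2 in treated replicates 1 and 2, and 1.04 and 1.00 times in input. SSB1 site 3 had 0.348 and 0.326 times the coverage of SSB1 site 2 in treated and 0.354 and 0.434 times in input RNA. Whether the SSB1 and SSB2 positions correspond, and whether reads of 1 gene are counted at the other, was not tested.

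**Figure D5:**
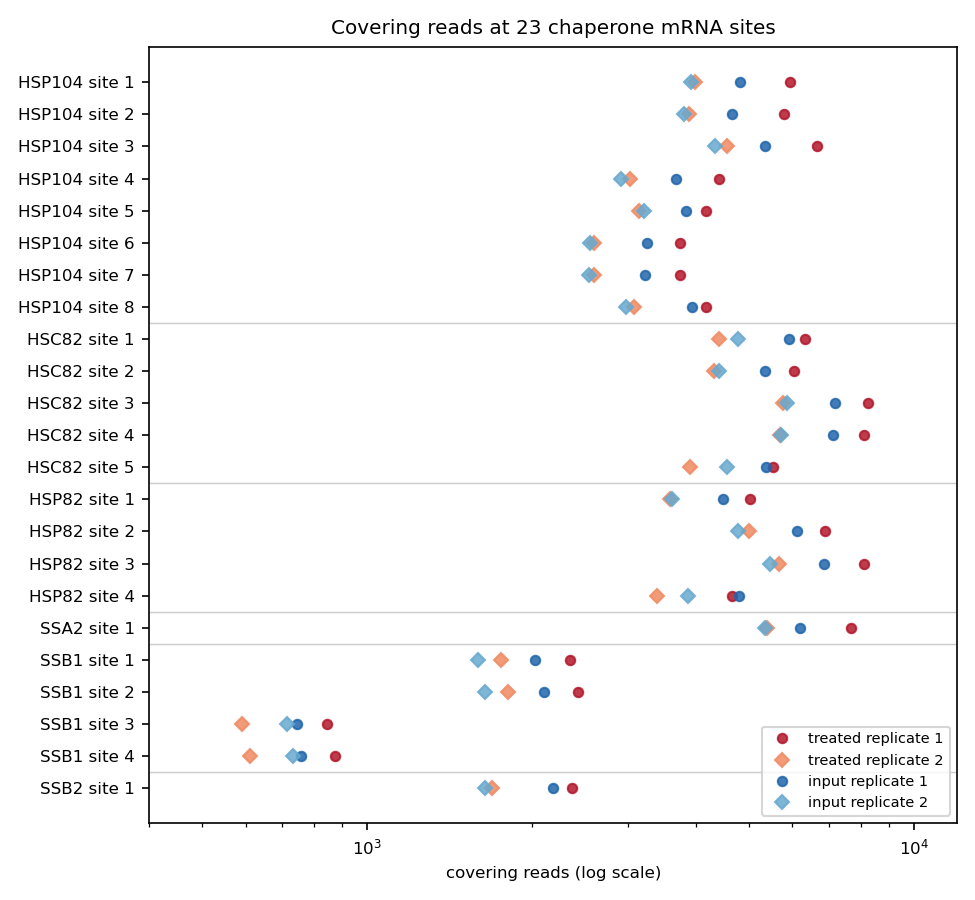
Covering reads (log axis) at the 23 chaperone sites in treated replicates 1 and 2 and input replicates 1 and 2. SSB1 sites 3 and 4, with 590 to 875 reads, are the shallowest, and HSC82 sites 3 and 4 the deepest, with up to 8246 reads.

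The mitochondrial Hsp70 gene SSC1, the Hsp110 gene SSE1, whose product exchanges nucleotide on Hsp70, and KAR2, the Hsp70 of the endoplasmic reticulum, had no position in the table, like SSA1. The coverage of these 4 genes was not analysed here, so levels under the 7.5% minimum, too few reads and no modification cannot be told apart.

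Several chaperone sites lay close together. Of the 17 gaps between neighbouring sites of a gene 5 (29.4%) were at most 10 nt, 2 in HSP104, 2 in SSB1 and 1 in HSC82, against 8.65% of the 636 such gaps in the whole table. Where both sites had at least 1000 reads in every library the share over all genes was 17.0% (18 of 106 gaps). The chaperone share was not restricted in this way. It includes the close gap between SSB1 sites 3 and 4, which had under 1000 reads in every library. The 106 gaps include those of the deeply covered chaperone sites. A gap was a multiple of 3 nt in 5 of the 17 chaperone gaps (29.4%), against 33.8% of all gaps. In HSP104 it was 3 of 7 gaps (42.9%), against 37.7% of the 106 gaps between deeply covered sites of all genes. The reading frame itself was not assigned.

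The deposited table also gives the authors' fold change of the mutated fraction per replicate. In the authors' deposited table the HSP104 sites with mutated input reads had fold changes from 67.8 to 273.7 in replicate 1 and from 39.6 to 349.75 in replicate 2. The lowest of the 23 sites was HSP104 site 7 in replicate 2, with a fold change of 39.6 in the authors' deposited table, where 5 input reads were mutated. SSB2 had 135.7 and 278.9 in the authors' deposited table. With 0 to 5 mutated input reads per site, these ratios moved with single reads and did not follow the order of the levels.

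Of 46 further chaperone, co-chaperone and heat shock genes 18 (39.1%) had a site, with 28 sites in all and a median level of 8.85%. Over all nuclear protein-coding genes the share was 20.8%, and it was 6 of 10 in the genes described above. The coverage of genes without a site was not used, so these shares are not separated from expression. No test was made of these lists, which were chosen with results known.

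The partners of Ssb at the ribosome both had sites. ZUO1, its J protein, had 3 sites, with mean levels of 9.07%, 10.3% and 8.41%. SSZ1 had 1 site, with 8.12% and 9.49% in treated replicates 1 and 2, against 0.0668% and 0.164% in input. The ZUO1 sites had 1503 to 1924 reads in treated replicate 1, near the 2350 and 2427 at the first 2 SSB1 sites, and none of them reached the level of SSB1 site 2. In the Hsp70 class SSE2, the stress-induced paralog of SSE1, had the other site, at 9.78% ± 0.613 (SD, n = 2). MDJ1, the J protein of mitochondria, had 2 sites, at 8.13% and 10.2%.

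Of 10 Hsp90 co-chaperone genes 4 had a site. AHA1, which stimulates the ATPase of Hsp90, had 2, at 7.62% and 8.45%. STI1, which bridges Hsp70 and Hsp90, had 1 at 7.89%, CDC37, the co-chaperone of kinases, had 1 at 8.14%, and SGT1 had the highest of the class at 12.04% ± 0.339 (SD, n = 2), with 228 and 161 treated reads. Of the 4 genes listed here as nucleotide exchange factors 0 had a site. SSE2, the paralog of the exchange factor gene SSE1, had 1 site and was counted in the Hsp70 class instead. Among the 8 genes of the cytosolic chaperonin CCT, TCP1 had 2 sites, at 10.7% and 8.24%, and CCT5, CCT7 and CCT8 had 1 each, the highest being CCT8 with 12.3% ± 0.809 at 196 and 132 treated reads.

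HSP78, the mitochondrial relative of HSP104, had 3 sites, at 9.22%, 10.7% and 9.46%, and the chaperonin gene HSP60 had 1 at 8.32%. The small heat shock protein genes HSP42 and HSP26 had 3 sites and 1 site. The HSP26 site, with 11748 and 8444 treated reads, had 7.74% ± 0.148, and the HSP42 sites had 9.56%, 8.07% and 8.14%. HSP12, a stress-induced membrane protein gene, had 1 site at 8.76% ± 0.152 and the deepest coverage of the list, 30919 and 20666 treated reads. Of the 3 genes for stress transcription factors, MSN4 had 2 sites, at 9.07% and 9.13%, and HSF1 and MSN2 had none.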

How the data were processed

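Per the file headers, the authors' deposited table gives for each site and library the counts of covering and of mutated reads and their fraction, and per replicate a fold change (ratio of treated to input), a p-value and a q-value. The deposited fraction equals mutated over covering reads. The submitters' processing notes name cutadapt and STAR. Versions, site caller, filters and genome build are not given in the sources used, so positions are printed as deposited, without a build. No genome sequence was used. Symbols were matched by locus tag to the RefSeq table of assembly R64. Sites assigned to 1 gene entered the pair tests, and 3 sites with more than 1 gene were left out.

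Sample titles gave the groups and the replicate numbers. The level is the mean over replicates of the treated percentage. Fisher exact tests (two-sided, counts summed over replicates, a minimum of 10 reads, Benjamini-Hochberg over all sites or pairs of the table) and Wilson and Newcombe 95% intervals cover counting error only. For a count of 0 the limit is 3 reads divided by the coverage. All member genes are named, and of the other chaperone genes those with a site, with their values where sites or levels were highest in a class. The genes, lists and tests were chosen with earlier results of these data known. The tests were checked on simulated data. The total depth of the libraries is unknown here; coverage at the 23 sites is given with them. Python 3.11.15, numpy 2.4.6, scipy 1.17.1, pandas 2.3.3 and matplotlib 3.10.9 were used.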

Additional observations from a re-analysis of the deposited data

How the results depend on the processing

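All 23 chaperone sites stayed higher in treated RNA at minimums of 20 and 50 reads, with none and with either replicate left out, which the authors' selection of sites fixes. The 4 HSP104 pairs that differed also had treated replicates that did not overlap, as in 18 of the 28 HSP104 pairs and in 47.6% of all pairs within genes. Pairs called on summed reads tend not to overlap, so this adds no separate evidence. The count of 4 became 0 without replicate 1 and 1 without replicate 2. Over all pairs within genes the count of 72 became 45 and 49. Fewer reads enter each test when a replicate is left out, and whether this lowers the counts was not tested. The 5 paralog pairs of the chaperones that differed became 3 to 4, and the 8 of all paralog genes became 5 to 7. The replicate numbers are shared by both groups, but no label ties a number to 1 culture. Between libraries of 1 number, the deviations from the group mean had a correlation of -0.00502 in coverage (all 1892 sites) and of 0.560 for the mutated fraction over 177 sites with at least 3 mutated input reads, or 0.107 without RPS25A and RPS25B. With the replicate number as a block (Cochran-Mantel-Haenszel test), the counts stayed at 23 sites, 4 HSP104 pairs and 5 paralog pairs. The median level of 8.53% was 8.60% to 8.65% in single replicates, 8.50% after subtracting input and 8.52% with reads summed. At sites with at least 1000 reads, an alternative chosen after seeing the data, it was 8.52%. Without the near-identical pairs it was also 8.52%, but only the 8 HSP104 sites are then left, so this is the median of 1 gene. Weighting sites by covering reads gave SSB1 a mean of 11.1% in place of 10.6%, since site 2 is deeper than sites 3 and 4. The means of HSP104, HSC82 and HSP82 moved by no more than their SD under this weighting. SSA2 and SSB2 have 1 site each, so weighting cannot move their means. With 2 replicates, leaving 1 out always moves a mean by less than its SD, so the SD sets no test of that step. Depth limits what can be called: within HSP104, HSC82 and HSP82 the smallest difference between sites that passed was 1.11 points in size, at 4656 to 8113 reads in treated replicate 1.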
